A study of Mus musculus with 6 samples.

Results

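Neurotransmitter receptor genes were read from a table of nuclear RNA levels in mouse embryonic stem cells (ESCs), the cultured pluripotent cells of the early embryo. Members were the protein-coding genes whose symbols name GABA, glycine, ionotropic and metabotropic glutamate, nicotinic and muscarinic acetylcholine, serotonin and dopamine receptors. Of 93 such genes listed, 89 had a base mean above 0 and made up the set, out of 19338 named genes in the whole table. Chrm5, Chrna6, Gabra6 and Htr1a were listed at 0. Where a gene had several rows, the row with the highest base mean was kept, which concerned 1 gene, Grid2ip, with base means of 63.0 and 60.5. Grid2ip binds the delta glutamate receptor and is no receptor subunit itself, but its symbol meets the rule.

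The cells carried floxed alleles of Rybp on a Yaf2-/- background (Rybpfl/fl;Yaf2-/-) and a tamoxifen-inducible Cre recombinase. RYBP and YAF2 are alternative subunits of Polycomb repressive complex 1, which places ubiquitin on histone H2A. Of 6 libraries, 3 came from untreated cells (UNT) and 3 from cells given OHT, a form of tamoxifen, at 800 nM for 96 hr to delete Rybp. Both groups lacked Yaf2 and derived from 1 CRISPR-edited clone, and cells without floxed Rybp given OHT were not analysed here, so effects of the deletion and of OHT itself cannot be told apart in this design.

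The value used for each gene was the authors' base mean, the read pair count normalized for library depth and averaged over all 6 libraries, UNT and OHT together. It carries no spread between libraries, and the depth of each library is unknown. Levels of UNT and OHT cells were therefore not compared, no test was run, and the deletion could not be checked against the labels. Differences between genes below are descriptions of 1 pooled mean each, and 2 genes with close levels cannot be ranked.

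Neurotransmitter receptors fall into 2 structural kinds. Ligand-gated ion channels, assembled from several subunits, open within the membrane when the transmitter binds, whereas G protein coupled receptors pass the signal to intracellular G proteins. GABA and glycine channels are mostly inhibitory in the mature brain, while glutamate channels carry most fast excitation. Several receptors need subunits from different genes, so the level of one gene says little without that of its partners.

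The 5′ ends of 3 pairs of partner subunits are shown first, because in each pair one gene had a far higher nuclear RNA level than the other. Each line gives the 250 bases before the start of the gene in RefSeq (GRCm38.p6), 5′ to 3′ on the strand of the gene, with each CpG in capitals. The windows lie at chr17:37045716-37045965 (plus strand), chr4:46991715-46991964 (minus strand), chr3:80913661-80913910 (minus strand), chrX:165327394-165327643 (minus strand), chr9:4796235-4796484 (minus strand) and chr3:80802836-80803085 (minus strand). In 5 of them the start matched that of the table's entry, and for Gabbr2 it lay 159 bp away.
Gabbr1: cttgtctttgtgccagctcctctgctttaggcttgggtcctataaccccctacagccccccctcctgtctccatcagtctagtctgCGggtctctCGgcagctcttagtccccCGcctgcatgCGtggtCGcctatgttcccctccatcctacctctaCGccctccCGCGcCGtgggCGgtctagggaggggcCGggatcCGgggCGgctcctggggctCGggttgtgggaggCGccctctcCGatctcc
Gabbr2: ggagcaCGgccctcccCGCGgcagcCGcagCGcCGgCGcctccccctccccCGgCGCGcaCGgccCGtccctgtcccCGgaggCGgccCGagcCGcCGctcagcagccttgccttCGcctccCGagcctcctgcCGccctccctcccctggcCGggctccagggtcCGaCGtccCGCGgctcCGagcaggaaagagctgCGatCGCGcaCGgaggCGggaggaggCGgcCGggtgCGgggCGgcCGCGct
Glrb: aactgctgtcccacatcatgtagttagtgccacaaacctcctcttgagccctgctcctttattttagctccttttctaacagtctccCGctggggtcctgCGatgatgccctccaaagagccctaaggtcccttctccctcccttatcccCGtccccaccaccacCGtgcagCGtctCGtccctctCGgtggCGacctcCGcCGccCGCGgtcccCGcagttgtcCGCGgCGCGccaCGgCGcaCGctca
Glra2: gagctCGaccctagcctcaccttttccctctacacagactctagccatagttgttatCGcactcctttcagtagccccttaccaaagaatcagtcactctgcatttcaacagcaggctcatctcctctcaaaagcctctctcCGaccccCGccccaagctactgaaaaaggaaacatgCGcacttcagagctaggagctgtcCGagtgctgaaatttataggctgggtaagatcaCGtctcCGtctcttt
Gria4: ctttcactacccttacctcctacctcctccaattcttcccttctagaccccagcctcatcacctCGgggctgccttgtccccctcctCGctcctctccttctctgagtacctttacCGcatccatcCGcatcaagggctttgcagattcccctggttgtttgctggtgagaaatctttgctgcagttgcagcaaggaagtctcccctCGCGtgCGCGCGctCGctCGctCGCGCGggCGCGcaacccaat
Gria2: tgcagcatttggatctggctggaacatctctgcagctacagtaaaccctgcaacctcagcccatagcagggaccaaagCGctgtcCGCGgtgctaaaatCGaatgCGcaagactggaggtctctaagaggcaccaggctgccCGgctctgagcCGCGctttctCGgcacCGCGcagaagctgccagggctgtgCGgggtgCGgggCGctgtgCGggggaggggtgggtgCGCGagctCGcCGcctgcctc
The window of Gabbr1 held 16 CpGs and that of Gabbr2 held 37. Glrb had 20 CpGs against 8 in Glra2, and Gria4 had 16 against 19 in Gria2. By count, the gene with the higher level thus had the more CpG-dense window in the glycine pair and the less CpG-dense window in the GABA-B and AMPA pairs. The ratio of observed to expected CpG was 0.60 in Gabbr1, 0.92 in Gabbr2, 0.92 in Glrb, 0.55 in Glra2, 0.83 in Gria4 and 0.73 in Gria2. By this ratio the order within the AMPA pair was reversed.

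Receptor genes as a set had low levels in these nuclei. Their base means reached 3094 with a median of 21.6, against a median of 307 over the 19198 entries above 0. Of the 89 genes, 74 (83.1%) lay under the median of all entries. There were 3 genes (3.37%) with a base mean under 1, 30 (33.7%) from 1 to under 10 and 32 (36.0%) from 10 to under 100. A further 19 (21.3%) lay from 100 to under 1000 and 5 (5.62%) at 1000 or more. Of all entries above 0, 6.26% lay under 1, 12.3% from 1 to under 10 and 17.7% from 10 to under 100. Another 34.3% lay from 100 to under 1000 and 27.9% from 1000 to under 10000. Together the receptor genes made up 0.0753% of the sum of base means. The 5 highest, Grik3, Gabbr1, Chrna7 and Gria4 among them, held 58.2% of the receptor genes' own sum.

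A base mean grows with the length of the gene, and receptor genes are long, with a median span of 60.7 kb against 21.0 kb for all entries. Levels are therefore compared between genes per kb of gene span, which counts introns because nuclear RNA holds unspliced transcripts. On this scale the median receptor gene stood at 0.472 per kb and the median entry at 13.7 per kb, and 85 of 89 receptor genes (95.5%) lay under the median of all entries. Per kb of exons the medians were 5.79 and 119, and 81 genes (91.0%) lay under that of all entries. Gabbr1 and Grik3 were the genes above the median of all entries by both lengths, though Grik3 only narrowly by gene span (13.8 against 13.7 per kb).

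**Figure D1:**
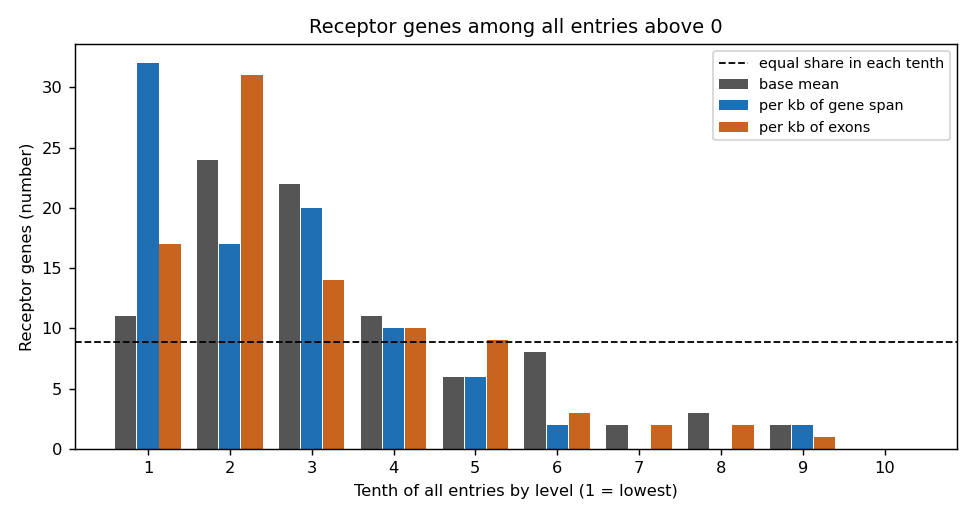
Number of receptor genes (y axis) in 10 equal bins of all entries with a base mean above 0, from lowest to highest level (x axis), by base mean (grey), per kb of gene span (blue) and per kb of exons (orange); the dashed line is an equal share. By gene span 32 of 89 genes fell in bin 1 and 2 in bin 9, and by any of the 3 measures none fell in bin 10.

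The choice of length changed which genes ranked first. Per kb of span, the 15 highest included Chrm4, Gabbr1, Chrna9, Grik3, Chrna7, Grin1, Grik5, Chrnb1, Gabre, Drd4, Chrnb2, Grm4, Htr5b and Chrna4, from 100.4 down to 3.43 per kb. Per kb of exons, Chrna7 came first at 654, followed by Gabbr1 at 550, and Grik3 stood at 345. The position of Chrm4 rests on a transcript model of a single exon spanning 1.44 kb, and with the longer RefSeq gene its level was 18.9 per kb. Likewise Chrna9 fell from 14.2 to 3.39 per kb with the RefSeq gene, and the span over which the authors counted it is not given in the sources used here.

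**Figure D2:**
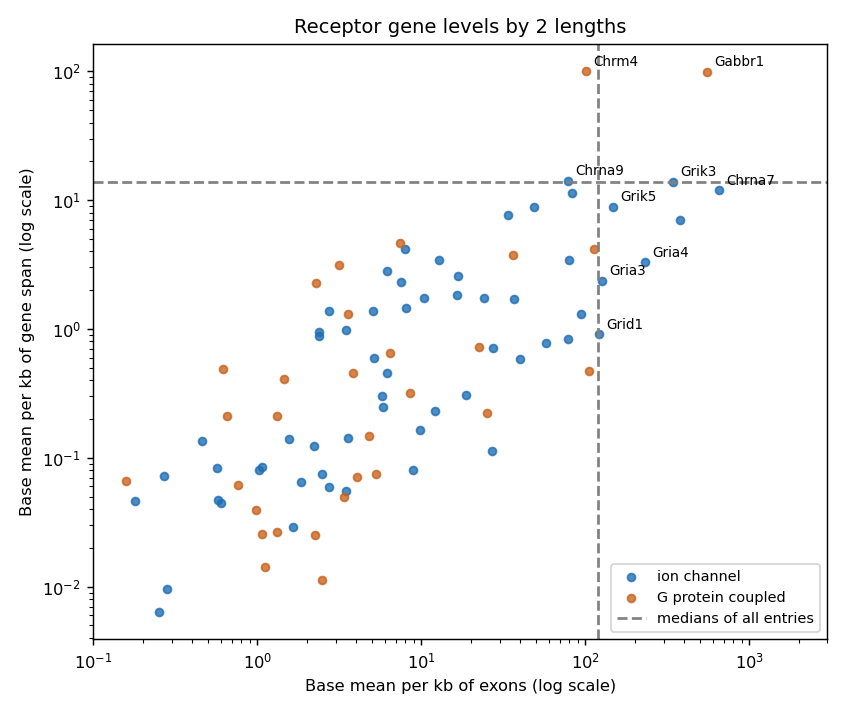
Level of each of the 89 receptor genes per kb of exons (x axis, log scale) and per kb of gene span (y axis, log scale), ion channel genes in blue and G protein coupled receptor genes in orange, with the medians of all entries dashed. Gabbr1 and Grik3 lie above both dashed lines, Grik3 only narrowly by gene span, and most genes lie under both medians.

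The 59 genes of the ion channel families, Grid2ip counted with them, had a median base mean of 31.6 and a median level of 0.783 per kb of span. The 30 genes of G protein coupled receptors had medians of 10.2 and 0.272 per kb. Base means of 10 or more were found for 41 of the former and 15 of the latter. Of all entries above 0, only 6.26% had a base mean under 1 and 12.3% from 1 to under 10. The ranges of both kinds of receptor gene overlapped over most of their length, and both held members at the top and bottom of the list.

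**Figure D3:**
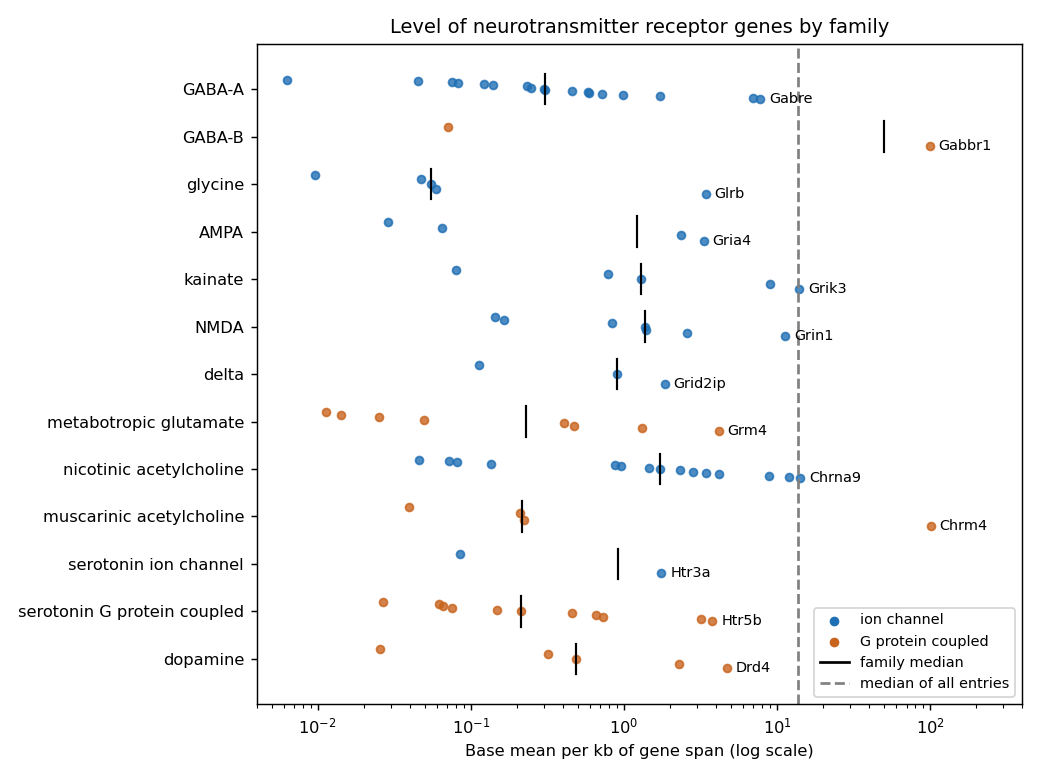
Level per kb of gene span (x axis, log scale) of the 89 receptor genes by family (rows), with the family median as a black bar and the median of all entries dashed; blue marks ion channel families and orange G protein coupled families. Each family with 3 or more genes spreads over more than a factor of 10, and 4 genes (Chrm4, Gabbr1, Chrna9 and Grik3) pass the dashed line. Chrna9 and Grik3 pass it only narrowly.

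GABA-A receptors are chloride channels built from 5 subunits, typically alpha, beta and gamma or delta. Of 18 genes above 0, none reached the median of all entries per kb of span, and the family median was 0.304 per kb. Gabre, the epsilon subunit, was highest per kb of span at 7.71 with a base mean of 145. Of the beta subunits, Gabrb2 had a base mean of 48.4 (0.231 per kb) and Gabrb1 of 33.9 (0.0755 per kb).

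The alpha subunits help to form the GABA binding site. Gabra4 led them with a base mean of 151 (1.71 per kb). Gabra5 followed at 0.717, Gabra3 at 0.307 and Gabra2 at 0.248 per kb, with Gabra6 at 0. Among gamma subunits, which set benzodiazepine sensitivity, Gabrg3 had a base mean of 389 (0.579 per kb) and Gabrg1 of 27.6 (0.302 per kb). Gabrg3 thus exceeded Gabrg1 more by base mean than per kb of span. Gabrd, the delta subunit of receptors outside synapses, was among the 5 lowest base means at 1.09. Of the subunits outside these classes, Gabrq (theta) had a base mean of 17.1, Gabrp (pi) of 16.8, and the rho subunits Gabrr1, Gabrr2 and Gabrr3 of 14.2, 4.02 and 2.57.

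GABA-B receptors are obligatory pairs in which Gabbr1 binds GABA and Gabbr2 couples to the G protein. The base mean of Gabbr1 was 2886 and that of Gabbr2 was 23.3. Per kb of span this was 99.2 against 0.0707, a ratio of 1403, and per kb of exons 550 against 4.05, a ratio of 136. Gabbr1 lay above 87.1% of all entries per kb of span, and Gabbr2 above 6.25%.

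Glycine receptors join ligand-binding alpha subunits to the beta subunit Glrb, which anchors them to the scaffold protein gephyrin. Glrb had a base mean of 240 (3.42 per kb). The alpha subunits Glra1, Glra2, Glra3 and Glra4 had base means of 5.58, 11.0, 1.82 and 1.06, or 0.00960 to 0.0596 per kb. Glrb was thus 57.3-fold above the highest alpha subunit per kb of span and 22.7-fold above the highest (Glra2) per kb of exons. Gphn, the gene of gephyrin, had a base mean of 45117 (98.5 per kb).

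AMPA receptors carry fast excitation and are tetramers of Gria1 to Gria4, among which Gria2 limits calcium entry. The family split into a high and a low pair. Gria4 and Gria3 had base means of 1253 and 656 (3.31 and 2.37 per kb), while Gria1 and Gria2 had 9.20 and 7.47 (0.0289 and 0.0650 per kb). Gria4 was 51.0-fold above Gria2 per kb of span and 124-fold above it per kb of exons.

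Kainate receptors pair low-affinity subunits (Grik1 to Grik3) with the high-affinity Grik4 and Grik5. Grik3 had the highest base mean of all receptor genes, 3094, and stood at 13.8 per kb, 173-fold above Grik1 and 17.7-fold above Grik2. Grik5 and Grik4 had almost equal base means of 557 and 552, but 8.92 and 1.30 per kb, because the span of Grik4 is longer. All 5 kainate genes had a base mean of at least 10, with Grik1 lowest at 31.6.

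NMDA receptors need Grin1, which binds glycine, together with Grin2 subunits, which bind glutamate. Grin1 had a base mean of 316 and stood at 11.3 per kb, between 4.37-fold (Grin2d) and 68.5-fold (Grin2b) above the Grin2 genes. The picture changed with the length used, since per kb of exons Grin1 and Grin2a were nearly level at 82.9 and 78.4. Of the Grin3 subunits, which bind glycine, Grin3a was lowest in the family at 0.143 per kb and Grin3b stood at 1.38 per kb. The delta receptor Grid1, which binds cerebellins rather than glutamate, had a base mean of 692 (0.907 per kb), and Grid2ip stood at 1.85 per kb.

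Metabotropic glutamate receptors comprise group I (Grm5 among them, coupled to phospholipase C), group II (Grm2 and Grm3) and group III (Grm4, Grm6, Grm7 and Grm8), the latter groups lowering cyclic AMP. The highest base means were those of the group III genes Grm8 (406) and Grm4 (335). Per kb of span they differed, at 0.472 and 4.14, since Grm8 is longer. Grm6 had a base mean of 6.30 but stood at 0.406 per kb, close to Grm8, and Grm7 had a base mean of 10.4 (0.0113 per kb, lowest of the family). Grm5 of group I had a base mean of 27.3, and Grm2 and Grm3 of group II had 16.9 and 3.41.

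Nicotinic acetylcholine receptors are cation channels of 5 subunits. Chrna7, which can form a channel on its own, had a base mean of 1358, or 11.9 per kb of span and 654 per kb of exons. Chrna9, which acts in inner ear hair cells, stood at 14.2 per kb of span and its partner Chrna10 at 2.83. The pair of the main brain receptor, Chrna4 and Chrnb2, had similar levels of 3.43 and 4.20 per kb with base means of 58.3 and 51.2.

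The muscle receptor joins Chrna1, Chrnb1, Chrnd and either Chrng, in the fetus, or Chrne, in the adult. Chrnb1 had a base mean of 105 (8.83 per kb), Chrnd of 22.0, Chrng of 6.57 and Chrne of 3.77. Chrna1, which holds the acetylcholine site and occurs in each such receptor, had a base mean of 0.790 (0.0461 per kb), so that Chrnb1 was 192-fold above it per kb. Of the 5 skeletal muscle markers, Myod1, Myog and Ckm had base means of 0.698, 1.80 and 4.86, whereas Myh3 had 44.2 and Acta1 had 274 (91.7 per kb). The ganglionic subunit Chrna3 likewise stood at 1.18, beside 45.0 for Chrna5 and 29.9 for Chrnb4. The lowest of the others were Chrna2 at 1.62 and Chrnb3 at 2.32.

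Muscarinic receptors couple to phospholipase C (Chrm1, Chrm3 and Chrm5) or lower cyclic AMP (Chrm2 and Chrm4). Chrm4 and Chrm3 had base means of 145 and 108, Chrm2 of 5.56 and Chrm1 of 4.11. Chrm2 was lowest per kb at 0.0396. Per kb of span Chrm3 and Chrm1 were nearly level at 0.223 and 0.210, since Chrm3 is the longer gene.

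Serotonin receptors were low throughout. Among 11 G protein coupled members above 0, the median base mean was 8.74, and 4 reached 10. Htr4, which raises cyclic AMP, had the highest base mean at 105 (0.730 per kb), and Htr5b followed at 70.3 (3.78 per kb, highest of the family). Its paralogue Htr5a was among the lowest of all receptor genes at 0.853, 57.3-fold under Htr5b per kb. Htr2c was lowest per kb at 0.0267, and the rest had base means from 2.74 (Htr2b) to 14.6 (Htr7). Of the ion channel subunits, Htr3a stood at 20.7 and Htr3b, which needs Htr3a to form a channel, at 2.56.

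Dopamine receptors comprise the D1-like Drd1 and Drd5, which raise cyclic AMP, and the D2-like Drd2, Drd3 and Drd4, which lower it. Drd2 and Drd4 had nearly equal base means of 21.6 and 20.9, with 0.320 and 4.68 per kb as Drd4 is short. Drd5 had a base mean of 7.20, Drd1 of 2.17 and Drd3 of 1.56 (0.0257 per kb). No dopamine receptor gene lay above the median of all entries by any measure.

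Several receptor genes are neighbours in the genome, and their levels per kb differed between 2.44-fold and 52.6-fold within clusters that held at least 2 genes above 0. Within 500 kb of another receptor gene lay 28 of the 93 listed genes, in 10 clusters. In GENCODE vM21 coordinates (GRCm38), Gria2 and Glrb lie within 226 kb on chromosome 3, and Glrb stood 52.6-fold above Gria2 per kb. On chromosome 5, Gabra4 (1.71 per kb) exceeded its neighbours Gabrg1, Gabra2 and Gabrb1 (0.302, 0.248 and 0.0755).

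The acetylcholine clusters showed the same spread. On chromosome 9, Chrna3 (0.0718 per kb) lies between Chrna5 (1.73) and Chrnb4 (1.45), while on chromosome 1 Chrnd and Chrng differed 2.44-fold (2.33 and 0.954 per kb). On chromosome 8, Chrnb3 had 0.0809 per kb beside Chrna6 at 0. Elsewhere on chromosome 9, Htr3a, Htr3b and Drd2 had 1.75, 0.0854 and 0.320 per kb. On the X chromosome Gabre exceeded Gabra3 25.1-fold, with Gabrq at 0.980 per kb, and on chromosome 4 Gabrr1 exceeded Gabrr2 3.72-fold (0.456 and 0.123 per kb).

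**Figure D4:**
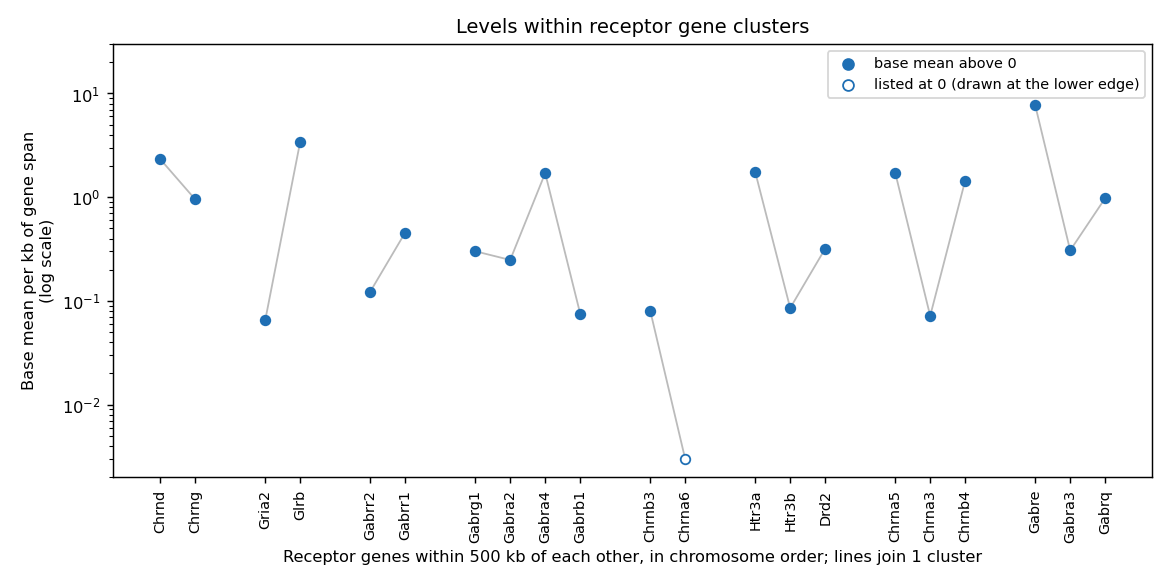
Level per kb of gene span (y axis, log scale) of 21 receptor genes in 8 of the 10 clusters, in chromosome order along the x axis; lines join the genes of 1 cluster, and open circles at the lower edge mark genes listed at 0. Gria2 and Glrb differ 52.6-fold, and Chrna3 sits under both of its neighbours.

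Some receptor genes overlap a gene on the other strand. In GENCODE vM21 this held for at least 10% of the span of 13 genes, and no gene was overlapped to that extent on its own strand. The library kit keeps strand, but whether the counting used it is not given in the sources used here. Htr2b lies wholly inside Psmd1, a proteasome gene at 96.5 per kb on the opposite strand, and stood at 0.212 per kb. Glra4 lies wholly inside BC065397 (18.0 per kb) and stood at 0.0470 per kb. Of Grin3b 34.6% lies within Tmem259 (124 per kb) and 49.0% of Chrna10 within Art1 (3.93 per kb), so the levels of these genes are less certain. Grin1 shares 27.6% of its span with the antisense gene Grin1os.

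RefSeq promoter windows of 300 bases were matched for 66 of the 89 genes (74.2%). This is under the 80% needed for a statement about the set, and a comparison of promoter CpG content with other genes is void. Of the matched windows 24 (36.4%) were CpG-rich, with a ratio of observed to expected CpG of at least 0.6 and at least 50% G+C. The same limits were met by 55.3% of the windows of all protein-coding genes, a share given for reference only. A core of the RE1 motif bound by the neuronal gene repressor REST (CAGCACC, any 2 bases, GGACAG, on either strand) was found in none of the 66 windows and in 0.0435% of all 13795 windows of protein-coding genes, and says nothing about the factor.

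The other genes of the transmitter systems were also followed. Of 49 listed auxiliary subunits, chaperones and scaffolds, 15 reached the median of all entries per kb of span, and their median was 4.29 per kb. The highest were Agrn (280 per kb), which organizes the neuromuscular junction, Gabarap (133 per kb), which takes part in the traffic of GABA-A receptors, and Gphn. Of 32 genes of transmitter synthesis, packaging, uptake and breakdown, 5 reached it, with a median of 1.22 per kb; Glul, which makes glutamine from glutamate, stood at 171 per kb and Gls2, which does the reverse, at 27.3 per kb. Of 27 G protein signalling genes, 6 reached it, with a median of 7.97 per kb and the highest values for Plcb3 (98.0), Gnai3 (77.3) and Gnai2 (71.8). Among receptor genes 4 of 89 did, and each list of partners had a higher median than the receptors themselves. The counts changed with the measure. Per kb of exons, 16 of 49, 6 of 32 and 16 of 27 genes of these lists reached the median of all entries, against 8 of 89 receptor genes. By base mean the counts were 20, 7 and 20, against 15 receptor genes.

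The labelled cell type was checked against marker genes. The 9 pluripotency markers with an entry (Pou5f1, Nanog, Sox2, Zfp42, Esrrb, Klf4, Tdgf1, Fgf4 and Utf1) all lay above the median of all entries, at 66.1 (Esrrb) to 2181 (Tdgf1) per kb of span. The 10 neuron markers ran from 0.00550 per kb of span for Dcx to 87.8 for Stmn2, with 3 (Stmn2, Tubb3 and Elavl3) above that median. Map2, Rbfox3, Snap25, Syt1, Syp and Elavl4 lay between Dcx and that median. The choice of measure mattered here, since 6 of the 10 neuron markers reached the median of all entries per kb of exons, and 6 by base mean. Of neural progenitor markers Nes stood at 82.0 per kb of span and Sox1, Pax6, Hes5 and Fabp7 at 1.33 to 11.4. Glial Olig2 stood at 45.9 per kb, and Mbp, Gfap and Aqp4 at 0.189 to 3.19. Muscle Acta1 stood at 91.7 per kb, with Myh3, Ckm, Myog and Myod1 at 0.266 to 1.84. Fibroblast Col1a1 and Thy1 stood at 22.0 and 21.2 per kb, with Col3a1, Col1a2 and Postn at 0.0450 to 4.09, and endoderm Gata4, Gata6, Sox17, Sox7 and Dab2 at 3.27 to 5.80. The part that other cell types in the culture may have in the receptor levels was not tested.

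**Figure D5:**
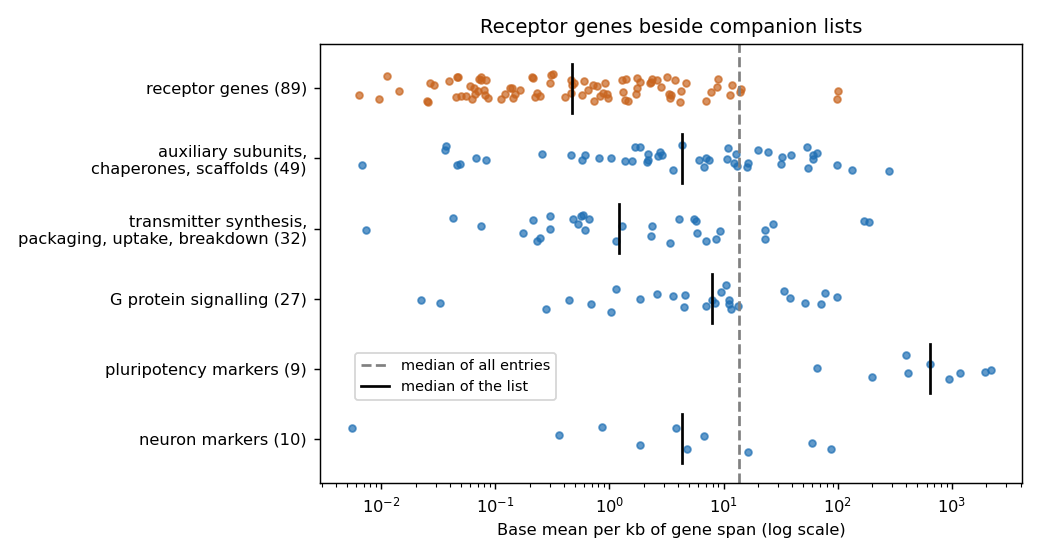
Level per kb of gene span (x axis, log scale) of receptor genes (orange) and of the companion and marker lists (blue), 1 point a gene with the number of genes in brackets; black bars are list medians and the dashed line is the median of all entries. The receptor genes have the lowest median, 0.472 per kb, and the pluripotency markers the highest, 639 per kb.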

How the data were processed

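Nuclear RNA of 3 UNT and 3 OHT libraries was depleted of rRNA and sequenced as read pairs with a directional kit. The authors removed rRNA reads with bowtie2, aligned the rest to mm10 by STAR, tried unmapped reads again in bowtie2, and counted pairs over a non-redundant selection of refGene entries with their own script before running DESeq2 (versions not given in the sources used here). The deposited base mean is a signal: the authors' normalized count averaged over all 6 libraries. The other 6 columns hold the authors' comparison of OHT with UNT (fold changes, errors, statistics and p-values) and were not used; with no values per library, no test was possible.

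Names came from RefSeq (20446 of 20633 entries) and otherwise GENCODE vM21. Gene span and exonic length came from the GENCODE transcript linked to the entry, as found for all 89 members. Protein sequences were not analysed here, and results of some genes are not reported here. Named genes were the highest and lowest of each family per kb, the 15 highest per kb, the 5 lowest base means, clustered genes, and the markers and 3 highest genes of each companion list; the other members, the partner pairs, overlapping genes and printed promoters were chosen after values were seen. Members and lists were chosen with earlier results of these data known. The calculations, run in Python with pandas and scipy, were tested on simulated data.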

Additional observations from a re-analysis of the deposited data

How the results depend on the processing

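The alternatives changed 2 results beyond the limits set for them. The median level per kb of receptor genes was 0.472 by gene span and 5.79 by exonic length, since the divisor is shorter. The share of matched promoters called CpG-rich was 36.4%, and 19.7% with limits of 0.75 and 55% G+C. There were 89 genes above 0, 86 with a base mean of at least 1, and 90 rows above 0 when every row was counted. The number with a base mean of at least 10 was 56 (69 at a minimum of 5 and 47 at 20). The share under the median of all entries per kb ranged from 91.0% to 97.7%. Of 13 families, 9 had the same highest gene by exonic length (not GABA-A, delta, nicotinic or dopamine) and 12 by RefSeq gene span, a length chosen after seeing the data. No paired analysis was possible because each gene has only 1 mean across libraries. For the same reason a test of OHT against UNT, other normalizations, low count filters, pseudocounts and leaving out each replicate were not run. Depth and the spread between libraries are unknown, so base means near 1 rest on few read pairs.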
